A study of Mus musculus with 18 samples.

Results

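The cholesterol synthesis genes described here are 7 genes, Hmgcs1, Idi1, Fdft1, Sqle, Cyp51, Msmo1 and Insig1, read in mouse cerebellum on Affymetrix arrays. They were taken by symbol, as every probe set (a set of short probes that reports 1 transcript) annotated with exactly 1 of these symbols. This gave 18 probe sets of the 34945 with a single gene symbol, and 7 of 18193 genes. The rule itself uses no expression values, but the members were chosen with earlier results of these data known. In the study's mice Cacna1a was altered, which encodes the pore-forming subunit of the Cav2.1 calcium channel, in work on spinocerebellar ataxia type 6. All animals had the C57BL/6 background. Homozygous MPI 118Q knock-in mice (118Q-KI), homozygous Sca6 CtmKO mice (CtmKO) and homozygous MPI 11Q knock-in mice (11Q-KI) each stood beside wild-type littermates of their own line (118Q-WT, CtmWT and 11Q-WT). Each of the 6 groups held 3 arrays, 18 in all. The MPI 118Q and CtmKO animals were 6 weeks old per the design text; no age is used here for 11Q animals. The labels do not spell out MPI or Ctm, and they name the replicates only as separate samples, so the p-values measure the spread between these samples.

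Cells build cholesterol from acetyl-CoA by way of mevalonate, isoprenoid units, squalene and lanosterol. When sterols in the endoplasmic reticulum run low, the transcription factor SREBP-2 and its partner Scap are released together from Insig proteins. In the Golgi SREBP-2 is cut by proteases, and the freed part raises the genes of the pathway. Plasma cholesterol hardly crosses the blood-brain barrier, so brain tissue makes its own, with oligodendrocytes and astrocytes as large producers. Hmgcs1 makes HMG-CoA at the head of the mevalonate branch, and Idi1 interconverts the isoprenoid building blocks. Fdft1 joins farnesyl units to squalene, Sqle oxidises squalene, Cyp51 demethylates lanosterol and Msmo1 removes sterol methyl groups. Insig1 is no enzyme: it holds the SREBP complex in the endoplasmic reticulum and is itself an SREBP target.

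The sequences upstream of the members are shown because the genes are known SREBP targets and their levels moved together within groups of arrays. RefSeq sequences of build GRCm38.p6 matched 5 of the 7 members, and Sqle and Fdft1 are named only. Each run gives the 250 bases before the annotated transcript start, 5′ to 3′ on the gene's own strand, with motif matches in capitals.
Hmgcs1 (chr13:119690101-119690350, plus strand): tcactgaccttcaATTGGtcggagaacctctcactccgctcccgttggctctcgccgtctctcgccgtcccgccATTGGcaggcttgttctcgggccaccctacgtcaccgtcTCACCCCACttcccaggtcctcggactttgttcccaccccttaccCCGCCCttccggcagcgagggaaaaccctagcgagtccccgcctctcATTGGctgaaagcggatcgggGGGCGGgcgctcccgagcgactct
Idi1 (chr13:8885356-8885605, plus strand): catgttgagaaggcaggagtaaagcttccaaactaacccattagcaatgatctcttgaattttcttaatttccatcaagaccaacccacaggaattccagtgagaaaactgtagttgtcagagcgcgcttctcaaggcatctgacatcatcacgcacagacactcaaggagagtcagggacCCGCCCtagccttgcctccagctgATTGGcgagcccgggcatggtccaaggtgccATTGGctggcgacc
Cyp51 (chr5:4104698-4104947, minus strand): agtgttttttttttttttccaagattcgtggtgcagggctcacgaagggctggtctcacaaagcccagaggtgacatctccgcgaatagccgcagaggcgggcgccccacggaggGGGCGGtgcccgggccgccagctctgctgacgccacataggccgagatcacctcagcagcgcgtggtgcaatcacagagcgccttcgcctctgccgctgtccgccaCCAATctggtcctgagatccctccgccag
Msmo1 (chr8:64733579-64733828, minus strand): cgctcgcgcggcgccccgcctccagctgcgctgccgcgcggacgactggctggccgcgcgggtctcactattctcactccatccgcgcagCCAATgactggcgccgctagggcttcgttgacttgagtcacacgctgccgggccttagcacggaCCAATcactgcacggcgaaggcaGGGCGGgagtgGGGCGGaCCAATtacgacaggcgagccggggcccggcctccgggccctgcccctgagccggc
Insig1 (chr5:28071162-28071411, plus strand): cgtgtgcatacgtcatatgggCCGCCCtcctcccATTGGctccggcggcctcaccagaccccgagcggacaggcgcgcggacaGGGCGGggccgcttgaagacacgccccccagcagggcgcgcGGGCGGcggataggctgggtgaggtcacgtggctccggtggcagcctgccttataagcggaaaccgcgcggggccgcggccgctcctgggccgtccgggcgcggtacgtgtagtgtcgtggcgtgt
Letters were searched on both strands: TCACNCCAC as the core of a sterol regulatory element, CCAAT as the box bound by NF-Y (ATTGG when read on the other strand) and GGGCGG as the box bound by Sp1 (CCGCCC on the other strand). The sterol element core stood in Hmgcs1 alone among these 5 windows, starting 137 bases before the start, and in 1.05% of all 32851 windows of the same length. At least 1 CCAAT match stood in 5 of 5 members, against 33.8% of all windows, and at least 1 GGGCGG match in 5 of 5, against 32.7%. Hmgcs1 and Msmo1 each held 3 CCAAT matches, the Idi1 window 2, and the windows of Cyp51 and Insig1 held 1 each. These matches are letters in a window, not measured binding sites.

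Values are log2 expression levels as deposited, and array medians lay between 2.38 and 2.55. Pairs of arrays correlated at 0.973 to 0.995 over all probe sets. Of 13 measured Purkinje and granule cell markers, 13 lay above the array median on all 18 arrays. The 4 probe sets of Cacna1a passed no test in any mutant comparison; the difference farthest from 0 was 0.61 in CtmKO (1430408_at, adjusted p = 0.185, limma), and the labels do not say where the altered part lies relative to the probes. In 118Q-KI the Purkinje cell markers Slc1a6, Car8 and Calb1 (4 of the 21 Purkinje probe sets) and the endothelial marker Flt1 fell, and the microglial markers Trem2 and Tyrobp rose. In these bulk samples fewer cells of a type and less RNA per cell cannot be told apart. Of the 18 member probe sets, 13 lay above the array median on every array. The other 5, Hmgcs1 1441536_at, Msmo1 1459627_at, Fdft1 1438918_at and 1438919_x_at, and Cyp51 1422534_at, lay below it on every array.

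The cholesterol synthesis genes did not pass the test in any mutant line when set against their own wild-type littermates. Each probe set was tested with limma (two-sided, 1 mean per group over all 18 arrays), with Benjamini-Hochberg adjustment over all 34945 probe sets and a threshold of 0.05. In 118Q-KI, 0 of 18 member probe sets passed, against 0.558% of all probe sets (93 higher and 102 lower). In CtmKO, 0 of 18 passed, against 0.916% of all (300 higher and 20 lower). In 11Q-KI, 0 of 18 passed, and 0% of all did. The smallest adjusted p of a member in limma was 0.20 in the 118Q line, 0.524 in the Ctm line and 0.909 in the 11Q line. With array weights, 1 member probe set passed in 118Q-KI, Hmgcs1 1433445_x_at, at a difference of -0.44 (adjusted p = 0.0361, limma).

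Without adjustment, 3 of 18 member probe sets had a p below 0.05 in 118Q-KI, close to the 14.1% of all probe sets that did. They were Hmgcs1 1433445_x_at (lower in the mutant), Msmo1 1459627_at and Fdft1 1438919_x_at (higher, and below every array's median). In CtmKO the count was 0, against 11.0% of all probe sets. In 11Q-KI it was 2, Fdft1 1448130_at and Cyp51 1422534_at, both lower in the mutant, against 5.24% of all. Mutant and wild-type arrays did not overlap for 3 of 18 members in the 118Q line, against 16.3% of all probe sets, and for 3 of 18 in the Ctm line, against 19.4%. In the 11Q line they overlapped for every member, and 9.88% of all probe sets did not overlap there.

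The median log2 difference over the 18 member probe sets was -0.03 in 118Q-KI, beside 0.03 over all probe sets. It was -0.01 in CtmKO, beside -0.04 over all. In 11Q-KI it was -0.18, beside -0.01, and 14 of 18 members had a negative difference, where 52.7% of all probe sets did. The members' differences in the 11Q line rest on the same few arrays, since the genes moved together there (below every group mean on 11Q-KI array 1), so the 14 are not independent. Tests of the differences between lines passed for no member: 0 of 18 for the 118Q effect minus the Ctm effect, against 1.63% of all probe sets, 0 of 18 for 118Q minus 11Q, against 0% of all, and 0 of 18 for Ctm minus 11Q, again against 0%.

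**Figure D1:**
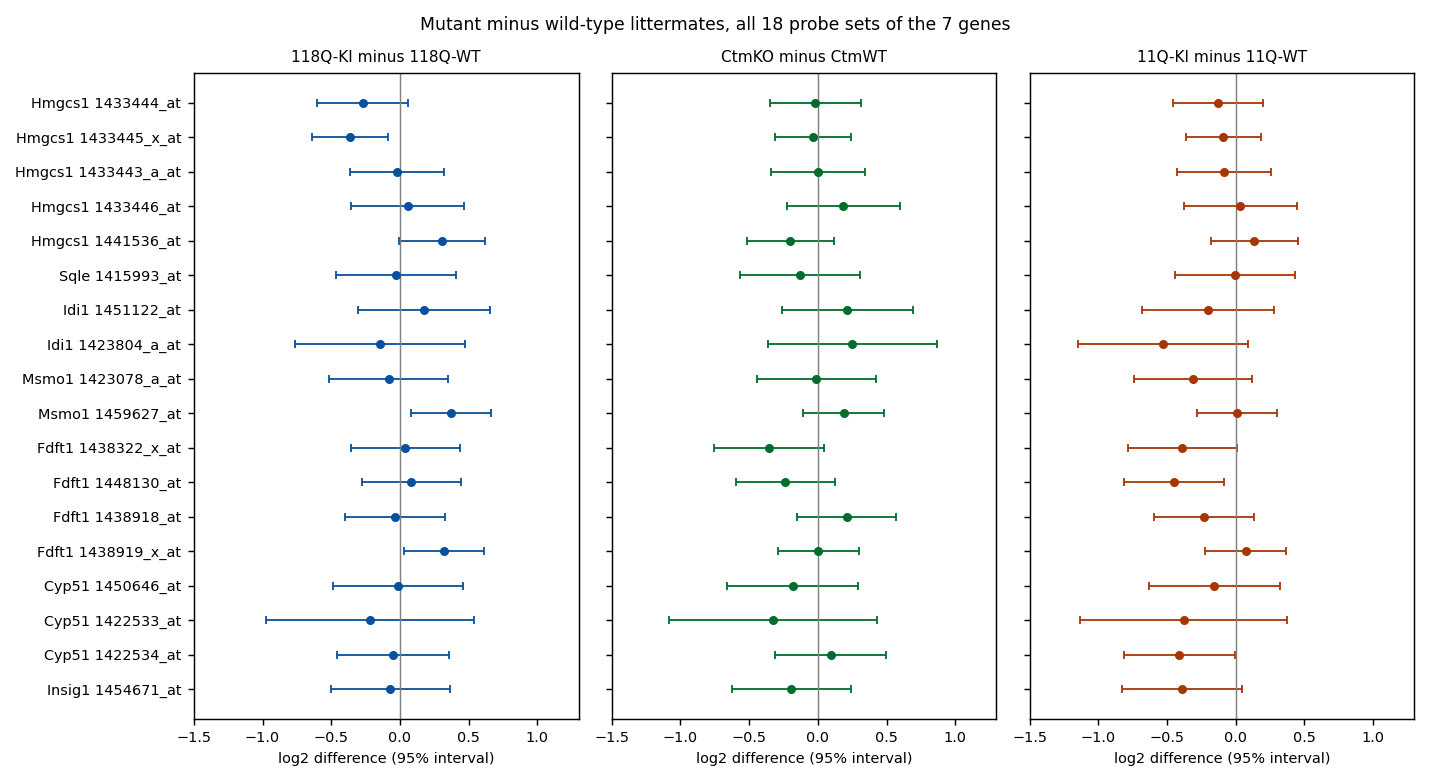
Log2 difference of mutant minus wild-type littermates (horizontal axis) for each of the 18 member probe sets (vertical axis) in the 118Q, Ctm and 11Q lines. Points are limma estimates and bars their 95% intervals; most bars cross 0, and none of the differences passed the adjusted threshold.

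Hmgcs1, which makes HMG-CoA, was read by 4 probe sets above the array median, 3 of them with means above 8 and 1433446_at dimmer. On 1433444_at the 118Q-WT arrays read 7.86, 8.31 and 7.98 and the 118Q-KI arrays 7.86, 7.67 and 7.80. The CtmWT arrays read 8.53, 8.73 and 8.70 and the CtmKO arrays 8.61, 8.59 and 8.70. The 11Q-WT arrays read 8.20, 8.07 and 8.53 and the 11Q-KI arrays 7.76, 8.38 and 8.27. The 6 Ctm arrays were thus at the top, mutant or not, with 11Q-WT array 3 reaching the lowest of them, and the 3 118Q-KI arrays lay just below their wild types with no overlap, the nearest pair of arrays both rounding to 7.86. The mutant difference was -0.27 (95% interval -0.60 to 0.06, adjusted p = 0.467, limma) in the 118Q line. It was -0.02 (-0.35 to 0.31) in the Ctm line and -0.13 (-0.46 to 0.20) in the 11Q line.

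The second bright Hmgcs1 probe set, 1433445_x_at, moved with it over the 18 arrays (r = 0.975). In Affymetrix naming the x marks a set with some probes that also match other transcripts. Its 118Q-KI arrays read 7.87, 7.75 and 7.76, below the 8.07, 8.30 and 8.10 of their wild types. The difference was -0.36 (95% interval -0.64 to -0.09, adjusted p = 0.20, limma). The third bright set, 1433443_a_at, gave a difference of -0.02 in the same mice (95% interval -0.37 to 0.32), with 118Q-KI arrays at 7.80, 8.38 and 8.41 around wild types at 8.19, 8.30 and 8.17. The dimmest of the 4, 1433446_at, read 6.16, 6.51 and 5.65 in 118Q-WT and 6.01, 6.06 and 6.42 in 118Q-KI, with overlap. Its CtmWT arrays read 6.32, 6.57 and 6.76 and its CtmKO arrays 6.82, 6.68 and 6.70, while 11Q-WT arrays read 6.31, 6.59 and 6.28 and 11Q-KI arrays 6.03, 6.64 and 6.59. Its differences were 0.06 in 118Q-KI (95% interval -0.35 to 0.47), 0.19 in CtmKO and 0.03 in 11Q-KI. The lower Hmgcs1 reading in 118Q-KI was therefore seen on 2 of the 4 probe sets above the array median and passed the adjusted threshold on neither, and the other two gave -0.02 and 0.06.

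Between lines 1 Hmgcs1 probe set read opposite to the other three. Wild types of the Ctm line were compared with the mean of 118Q-WT and 11Q-WT, a contrast in which 16.6% of all probe sets passed. There 2 of 18 member probe sets passed (11.1%), both of Hmgcs1: 1433444_at was higher in CtmWT by 0.49 ± 0.136 (SE, adjusted p = 0.0183, limma) and 1433445_x_at by 0.35 ± 0.114 (SE, adjusted p = 0.0438, limma). On 1433443_a_at the same mice were lower, at -0.30 (SE 0.141, adjusted p = 0.158, limma). That set read 7.82 to 8.15 on the 6 Ctm arrays and 7.80 to 8.57 on the others, and over the 18 arrays it correlated with 1433444_at at r = -0.28 (0.34 within groups). The dimmer 1433446_at was higher in CtmWT by 0.30 without passing (SE 0.169, adjusted p = 0.247, limma), and it correlated with 1433444_at at r = 0.718. So 3 of the 4 sets above the array median read higher in CtmWT, 2 of them past the threshold, and 1433443_a_at alone read lower.

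The number of Hmgcs1 calls in this contrast was sensitive to single arrays. Leaving out each array in turn left 0 to 2 member calls. Without CtmWT array 2 or CtmWT array 3 there was none. Without 118Q-WT array 2 or 11Q-WT array 3 both remained, and without any other array of the contrast 1433444_at alone remained. Since 5800 probe sets differed between these wild types, line, litter and handling cannot be told apart. Marker probe sets passed in this contrast too, where 16.6% of all probe sets did. Higher in CtmWT were 5 of 25 oligodendrocyte probe sets (Cldn11, Cnp, Mog and Mag), with 0 lower. So were 6 of 26 Bergmann glia and astrocyte probe sets (Aqp4, Slc1a3, Slc1a2 and Gfap), with 0 lower. Of 21 Purkinje cell probe sets, 3 were higher and 3 lower. The mean level of the 9 measured oligodendrocyte markers was 8.38 to 8.45 in CtmWT, 7.70 to 8.49 in 118Q-WT and 7.91 to 8.29 in 11Q-WT. For the 10 astrocyte markers it was 7.99 to 8.04, 7.77 to 8.07 and 7.79 to 7.93. The part of these cell types in the Hmgcs1 difference was not tested. With an RNA quality covariate 1433444_at stayed higher by 0.52 (adjusted p = 0.013, limma).

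**Figure D2:**
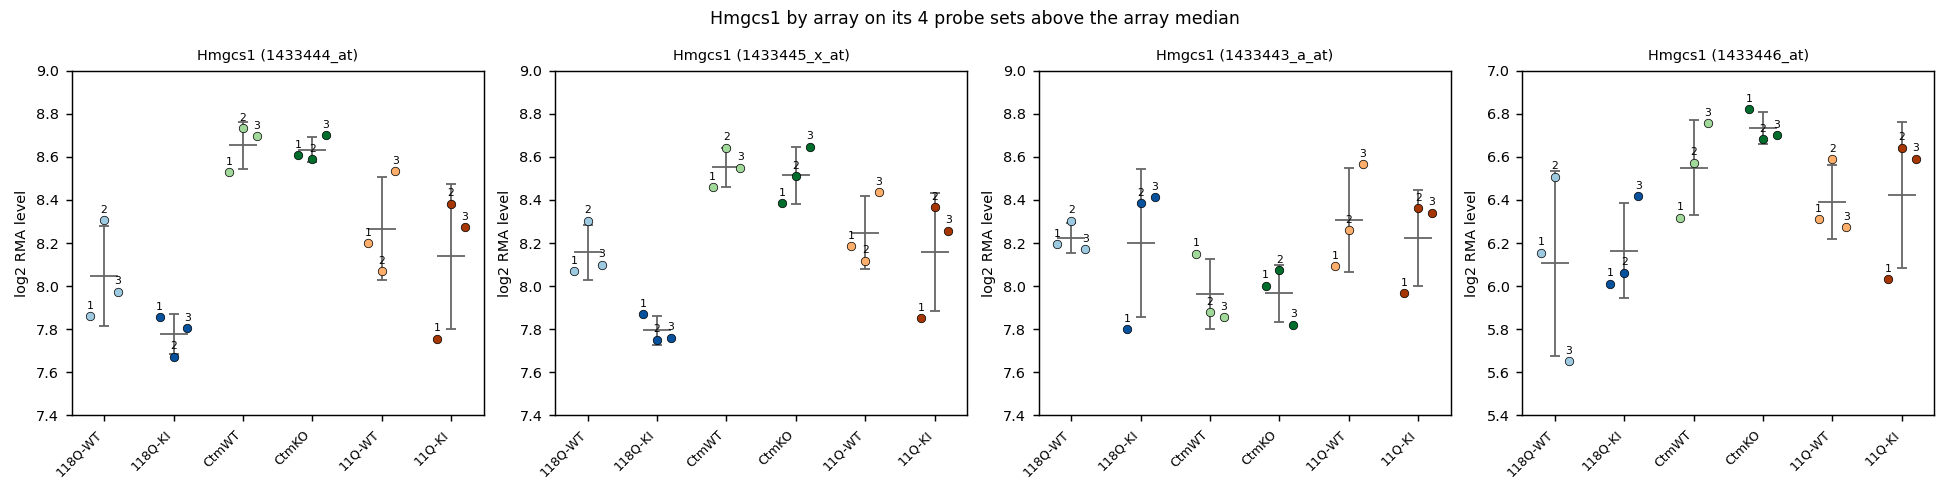
Log2 level of Hmgcs1 (vertical axis) on its 4 probe sets above the array median in each of the 18 arrays, by group (horizontal axis); numbers are array numbers, long bars group means and short caps 1 SD. The 6 Ctm arrays lie high on 1433444_at (8.53 to 8.73) and 1433445_x_at but low on 1433443_a_at (7.82 to 8.15). The panel of 1433446_at has a lower scale of the same length.

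Idi1, the isomerase of the isoprenoid units, spread most in the 11Q and 118Q lines. Its brightest probe set, 1451122_at, read 6.08, 6.28 and 6.85 in 11Q-WT and 5.67, 6.44 and 6.49 in 11Q-KI. In the 118Q line it read 6.27, 6.48 and 6.44 in wild types and 6.08, 6.90 and 6.74 in knock-ins, so the groups overlapped in both knock-in lines. CtmKO arrays read 6.37, 6.37 and 6.34, all above the 6.30, 5.92 and 6.21 of CtmWT. That difference was 0.22 (95% interval -0.26 to 0.69, adjusted p = 0.803, limma). The other Idi1 probe set, 1423804_a_at, gave 0.25 in CtmKO and -0.53 in 11Q-KI (95% interval -1.15 to 0.09).

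Fdft1, squalene synthase, showed its largest differences in the Ctm and 11Q mutants, without passing. On 1438322_x_at the CtmKO arrays read 5.65, 5.50 and 5.53 and the CtmWT arrays 5.63, 5.77 and 6.35, so a single high wild type separated the means. The difference was -0.36 (95% interval -0.75 to 0.04, adjusted p = 0.524, limma). In the 11Q line the wild types read 5.78, 6.13 and 6.59 and the knock-ins 5.48, 5.98 and 5.88, a difference of -0.39 (-0.79 to 0.01). Its second bright set, 1448130_at, differed by -0.24 in CtmKO and by -0.45 in 11Q-KI (95% interval -0.81 to -0.09, adjusted p = 0.909, limma). In 118Q-KI both sets lay near their wild types, at 0.04 and 0.08.

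The Fdft1 comparison changed with the control group. Against the 6 arrays of 118Q-WT and 11Q-WT, in place of its own littermates, CtmKO was lower on 1438322_x_at, at -0.65 (adjusted p = 0.0208, limma) and higher on Hmgcs1 1433444_at by 0.48 (adjusted p = 0.0348, limma). Against the same 6 wild types 118Q-KI was lower on Hmgcs1 1433445_x_at, at -0.41 (adjusted p = 0.0403, limma). Line and genotype cannot be told apart in the CtmKO values.

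Sqle, squalene epoxidase, was read by a single probe set, 1415993_at. It read 5.95, 6.00 and 5.79 in 118Q-WT and 5.62, 6.05 and 5.99 in 118Q-KI. In the Ctm line it read 6.09, 5.98 and 6.09 in wild types and 6.06, 5.90 and 5.81 in knockouts. In the 11Q line it read 5.49, 6.10 and 6.11 in wild types and 5.30, 6.02 and 6.35 in knock-ins, the widest range of any line. The mutant differences were -0.03 in 118Q-KI (95% interval -0.47 to 0.41), -0.13 in CtmKO (-0.57 to 0.31) and -0.01 in 11Q-KI (-0.44 to 0.43). Mutants and wild types overlapped in all 3 lines.

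Cyp51, the lanosterol demethylase, read on 1450646_at 5.27, 5.51 and 5.22 in 118Q-WT and 4.86, 5.62 and 5.48 in 118Q-KI. CtmKO arrays read 5.15, 5.17 and 5.14 and lay just below CtmWT at 5.19, 5.37 and 5.44, with no overlap. The difference there was -0.18 (95% interval -0.66 to 0.29, adjusted p = 0.843, limma). The 11Q-WT arrays read 4.80, 5.34 and 5.91, a range of 1.12 within 1 genotype, and the 11Q-KI arrays 4.86, 5.41 and 5.31. Its 3 probe sets moved together over the arrays, with r between 0.702 and 0.85, although 1422534_at lay below every array's median. The middle one, 1422533_at, had the largest within-group SD of the 18 member probe sets (0.524) and read 2.54, 3.24 and 4.48 in 11Q-WT and 2.41, 3.42 and 3.29 in 11Q-KI. Its mutant differences were -0.22 in 118Q-KI, -0.33 in CtmKO and -0.38 in 11Q-KI (95% interval of the last -1.14 to 0.37).

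Msmo1, the sterol methyl oxidase, read on 1423078_a_at 5.75, 5.85 and 5.73 in 118Q-WT and 5.47, 5.75 and 5.86 in 118Q-KI. It read 5.78, 5.73 and 6.03 in CtmWT and 5.92, 5.70 and 5.89 in CtmKO. In the 11Q line it read 5.42, 5.82 and 6.02 in wild types and 4.80, 5.74 and 5.78 in knock-ins. The lowest of the 18 values was that of 11Q-KI array 1, and the groups overlapped in all 3 lines. The 11Q difference was -0.31 (95% interval -0.74 to 0.12, adjusted p = 0.909, limma). Leaving out 1 array at a time moved it between -0.48 and 0.01. The dim set 1459627_at read 1.05, 1.28 and 1.29 in 118Q-KI, above 0.91, 0.88 and 0.72 in 118Q-WT (adjusted p = 0.221, limma), and did not follow the bright set over the arrays (r = 0.01).

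Insig1, the sterol-regulated retention protein, read on 1454671_at 5.92, 6.12 and 6.50 in 118Q-WT and 6.37, 6.08 and 5.88 in 118Q-KI. It read 6.14, 6.02 and 6.52 in CtmWT and 6.22, 5.74 and 6.13 in CtmKO. In the 11Q line it read 6.02, 6.40 and 6.66 in wild types and 5.59, 6.13 and 6.19 in knock-ins. Groups overlapped in every line. The differences were -0.07 in 118Q-KI, -0.19 in CtmKO and -0.39 in 11Q-KI (95% interval -0.83 to 0.04, adjusted p = 0.909, limma).

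**Figure D3:**
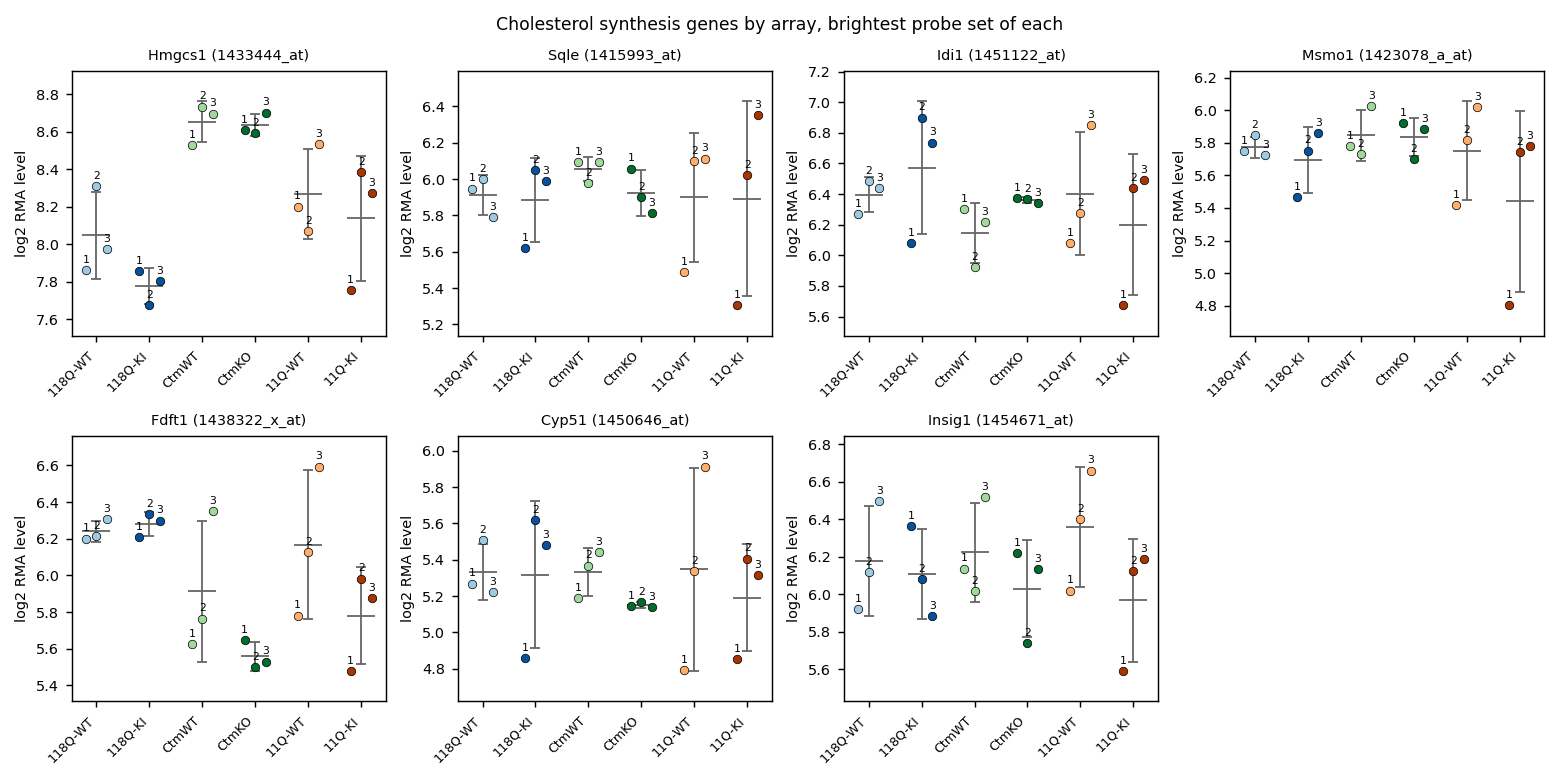
Log2 level (vertical axis) of each of the 7 genes on its brightest probe set, in each of the 18 arrays by group (horizontal axis); numbers are array numbers, long bars group means and short caps 1 SD, and each panel has its own scale. In the 11Q groups array 1 lies low for most genes (Msmo1 at 4.80 in 11Q-KI), while mutants and wild types overlap in most panels.

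Within groups the members rose and fell together from array to array, mostly in the 11Q line. Each gene was taken on its brightest probe set (the 1 with the highest mean over all arrays), group means were subtracted, and the 21 pairs of genes were correlated over the 18 arrays. All 21 correlations were positive, with a median of 0.646, from 0.352 (Cyp51 and Insig1) to 0.912 (Sqle and Msmo1). An exact permutation test, adjusted over the 21 pairs, passed for 9 pairs. It was two-sided and ran over all 46656 rearrangements of 1 gene's arrays within groups (smallest possible p 2.14e-05). The members were chosen with earlier results of these data known, so the p-values of pairs here and below are descriptive.

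Sqle and Msmo1, which oxidise squalene and strip sterol methyl groups, were the closest pair (exact p = 0.00347, adjusted p = 0.0146). By this correlation Msmo1 ranked 2 among the 18193 genes for Sqle. Other pairs ranked far lower, as low as 3681 for Insig1 among the genes for Cyp51 and 4018 for Cyp51 among those for Insig1. Idi1 and Cyp51 correlated at 0.86 (exact permutation, adjusted p = 0.0204), Idi1 and Msmo1 at 0.845 (0.0201) and Sqle and Idi1 at 0.821 (0.0146). Cyp51 also passed with Msmo1, Sqle and Fdft1, and Fdft1 with Msmo1 and Insig1. No pair with Hmgcs1 passed: its correlations were 0.475 to 0.672, and its closest partner was Msmo1 (exact permutation, adjusted p = 0.124). Insig1 passed only with Fdft1, at 0.735 (exact permutation, adjusted p = 0.017).

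Levels not centred on group means gave a looser picture. Over the 18 arrays the median r was 0.497, and 19 of 21 pairs were positive. The exceptions were Hmgcs1 with Fdft1 (r = -0.337) and with Idi1 (r = -0.0617). By a permutation test with 100000 resamples, adjusted over 21 pairs, 11 pairs passed for Pearson's r and 4 for Spearman's rho. Sqle and Msmo1 gave r = 0.826 (permutation p = 0.0001, adjusted p = 0.0021) and rho = 0.701 (permutation p = 0.00154, adjusted p = 0.0162), and r = 0.55 without the 2 arrays farthest from the median of Sqle, 11Q-KI 1 and 11Q-WT 1. Idi1 and Cyp51 gave r = 0.758 (permutation p = 0.0004, adjusted p = 0.00406) and rho = 0.637 (permutation p = 0.00546, adjusted p = 0.0307), and r = 0.677 without 11Q-KI 1 and 118Q-KI 2. Sqle and Cyp51 gave r = 0.726 (permutation p = 0.00058, adjusted p = 0.00406) and rho = 0.631 (permutation p = 0.00584, adjusted p = 0.0307), and r = 0.542 without 11Q-KI 1 and 11Q-WT 1. Fdft1 and Cyp51 gave r = 0.645 (permutation p = 0.00327, adjusted p = 0.0114), rho = 0.717 (permutation p = 0.00135, adjusted p = 0.0162) and r = 0.589 without 11Q-KI 1 and CtmKO 2.

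**Figure D4:**
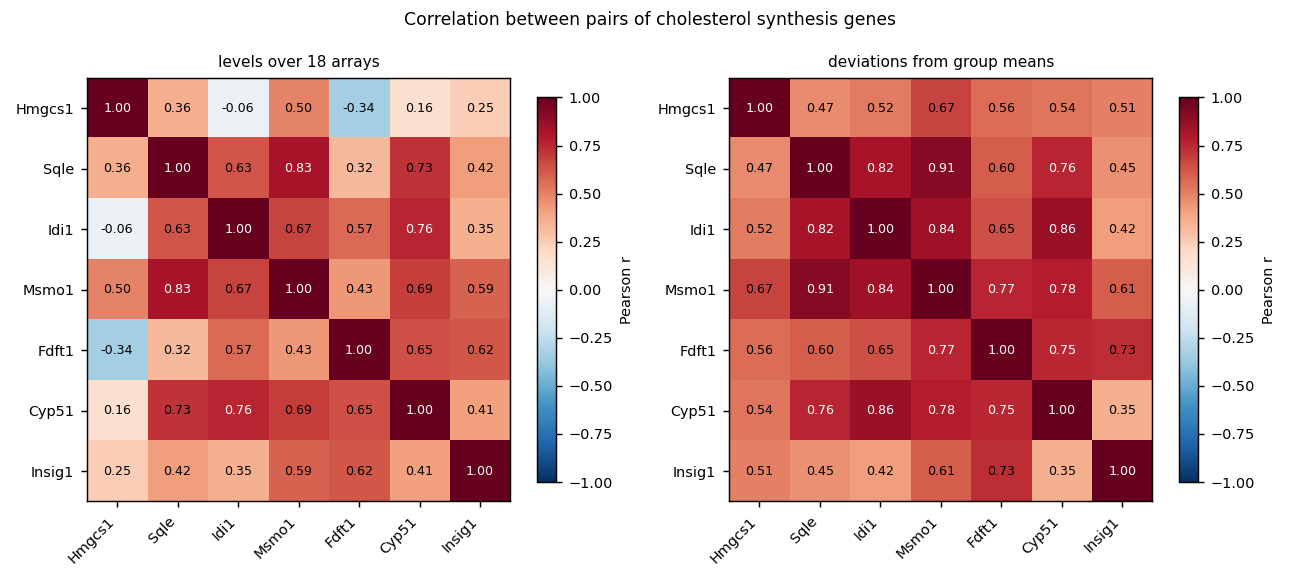
Pearson r between each pair of the 7 genes over the 18 arrays, from the levels (left) and from deviations from group means (right); colour runs from -1 (blue) to 1 (red). Pairs with Hmgcs1 are near or below 0 on the left for Idi1 and Fdft1 and positive on the right, where all 21 pairs are positive.

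The 11Q line carried most of this co-variation. Within the line's 6 arrays the median r of the 21 pairs was 0.906, from 0.686 to 0.994, with 21 positive. In the Ctm line it was 0.353 with 17 positive, and in the 118Q line 0.142 with 14 positive. With 6 arrays a line, the exact test cannot go below p = 0.0278. The members also spread most there: the median within-group SD over the 7 genes was 0.431 in the 11Q line, 0.182 in the 118Q line and 0.139 in the Ctm line. These differences between lines were not tested. Without the 11Q line the median r over the other 12 arrays was 0.208 and 0 pairs passed, an alternative chosen after seeing the data. Without 11Q-KI array 1 alone it was 0.489 and again 0 pairs passed.

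Array by array, all 7 genes lay below their group mean on 11Q-KI 1, by 0.299 for Fdft1 up to 0.64 for Msmo1. All 7 also lay below it on 11Q-WT 1, where Cyp51 was the farthest at -0.55 and Hmgcs1 the nearest at -0.07. On 11Q-WT 3, 11Q-KI 2 and 11Q-KI 3 all 7 lay above, by up to 0.57 (Cyp51 on 11Q-WT 3). Outside the 11Q line the 7 genes shared a direction on 1 of 12 arrays, CtmWT 3, where all lay above. As a mean of the 7 standardised deviations, 11Q-KI 1 stood at -1.93, 11Q-WT 1 at -1.42 and 11Q-WT 3 at 1.51. Because deviations were taken from each group's own mean, low and high arrays occur in wild types and knock-ins by construction.

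**Figure D5:**
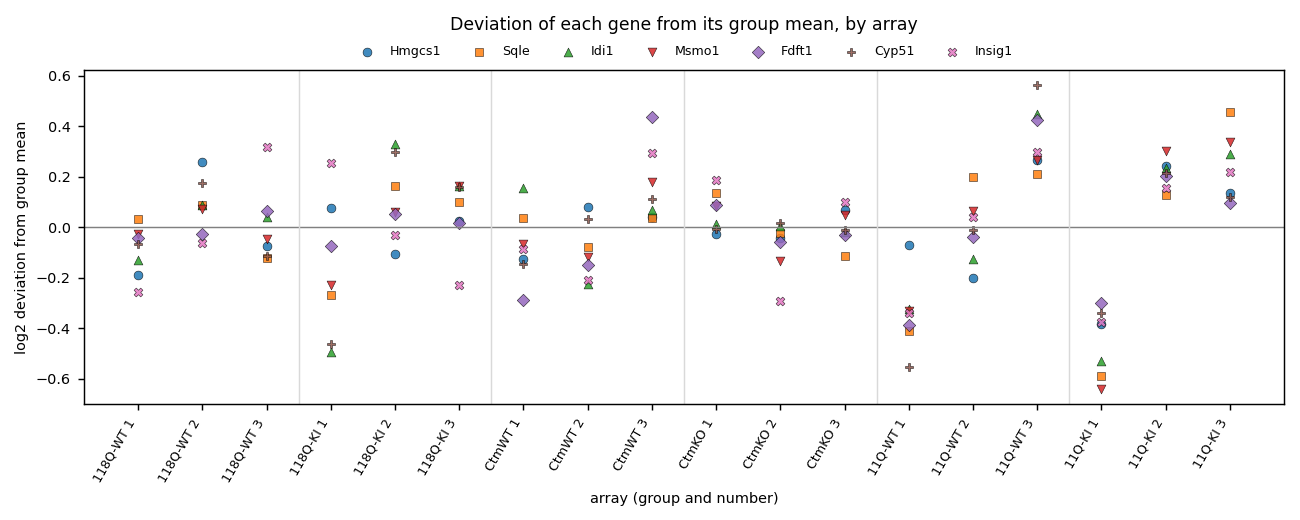
Log2 deviation of each of the 7 genes from its own group mean (vertical axis) on each of the 18 arrays (horizontal axis), with 1 symbol per gene. The 7 symbols lie on 1 side of 0 on 11Q-WT 1, 11Q-WT 3, 11Q-KI 1, 11Q-KI 2, 11Q-KI 3 and CtmWT 3.

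Other measures moved with the members in the 11Q line. The RNA quality difference (3′ minus 5′ signal of the array's control probe sets for Gapdh and beta-actin, larger with more degraded RNA) was 0.73, 0.69 and 0.50 on the 11Q-WT arrays and 0.72, 0.71 and 0.60 on the 11Q-KI arrays. The mean oligodendrocyte marker level (9 of 10 markers measured) was 7.91, 8.13 and 8.29 on the wild types and 7.66, 8.23 and 7.88 on the knock-ins. Arrays 11Q-WT 1 and 11Q-KI 1, with the lowest members, were among those with high RNA quality difference and low oligodendrocyte level. Members lay above their group means on 11Q-KI 2, with an RNA quality difference of 0.71, and on 11Q-KI 3, with an oligodendrocyte level of 7.88. The 11Q-KI means of these measures were 0.67 and 7.92, and the part of either measure was not tested. Array 11Q-KI 1 had the lowest array median, 2.38. Over the 18 arrays, after subtraction of group means, the mean of the members correlated with the RNA quality difference at r = -0.56 (rho = -0.49) and with the oligodendrocyte level at r = 0.552 (rho = 0.496). Without the 11Q line these were -0.174 and 0.247. For the Bergmann glia and astrocyte level r was 0.427 (rho = 0.509) over the 18 arrays, 0.592 without the 11Q line and 0.499 within it. Within the 6 arrays of the 11Q line alone, the members correlated with RNA quality at -0.763 (rho = -0.829) and with oligodendrocyte level at 0.854 (rho = 0.714), but also with other marker lists. Purkinje cell markers went the other way, at r = -0.876 (rho = -0.886), over levels that ran only from 9.37 to 9.50. Endothelial markers stood at 0.81 (rho = 0.60), with 11Q-KI 1 the lowest at 4.60 and the other arrays at 4.81 to 4.97, and meningeal and fibroblast markers at 0.734 (rho = 0.543). Outside the 11Q line these 3 lists gave -0.466, -0.408 and -0.183. With RNA quality regressed out, the median pair correlation of the members was 0.587, and the part of these cell types was not tested. No p is given for these relations, since the mean was built from the chosen members.

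Choroid plexus markers, which mark tissue attached to the cerebellum, behaved otherwise. Their mean level (7 of 8 measured) was 5.93 to 6.32 in 11Q-WT and 2.47 to 5.70 in 11Q-KI, with Otx2, Clic6 and Aqp1 the markers of smallest p there. It correlated with the members at r = -0.183 over 18 arrays and at -0.739 over the 12 arrays outside the 11Q line. Removing it by regression left the median pair correlation of the members at 0.646. That regression used all 18 arrays and was not repeated without the 11Q line, so the part of choroid plexus tissue was not tested.

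The other enzymes of the pathway followed the members closely. Of 14 further cholesterol synthesis enzymes listed, 11 had a probe set of their own, and the rest were not analysed here. Their mean level correlated with the mean of the members at r = 0.932 (rho = 0.909) over the 18 arrays within groups, and at 0.845 over the 12 arrays outside the 11Q line. Of the 11 enzymes, 8 had an r above 0.5 with the members (72.7%), where 10.2% of all genes outside the members did. Without the 11Q line the share was 36.4%, against 12.5% of all. The closest were Dhcr7, which completes cholesterol by reducing its last double bond (0.801), Mvd, the mevalonate diphosphate decarboxylase (0.777), Hsd17b7, a sterol ketone reductase (0.75), and Nsdhl, a sterol decarboxylase (0.70). Pmvk, a mevalonate pathway kinase, followed at 0.663, Fdps, the farnesyl diphosphate synthase, at 0.641, the sterol isomerase Ebp at 0.552 and the lanosterol synthase Lss at 0.545. The sterol reductase Tm7sf2 (0.49), the desaturase Sc5d (0.323) and mevalonate kinase, Mvk (0.269), were looser. This order changed without the 11Q line: Dhcr7 had 0.859, Tm7sf2 0.663, Ebp 0.651 and Hsd17b7 0.641. Below 0.5 there lay Mvk (0.406), Mvd (0.373), Fdps (0.353), Nsdhl (0.35), Lss (0.333), Pmvk (0.289) and Sc5d (0.106). The mean level of the 11 enzymes ran as the members did in the 11Q line: 5.03, 5.21 and 5.36 in wild types and 4.92, 5.25 and 5.20 in knock-ins.

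No further pathway enzyme passed the test in a mutant line: 0 of 21 probe sets rose and 0 fell in each of the 3. On the brightest probe sets the median difference was 0.12 in 118Q-KI (9 of 11 positive). It was -0.19 in CtmKO and -0.07 in 11Q-KI (9 of 11 negative in each). Over all probe sets the medians were 0.03, -0.04 and -0.01, and 42.6%, 59.9% and 52.7% of differences were negative. Most of these enzymes moved with the members from array to array, so their signs are not independent. The smallest p values belonged to Fdps (-0.46 in CtmKO, adjusted p = 0.182), Mvk (-0.29 in CtmKO, adjusted p = 0.349) and Lss 1420013_s_at (0.37 in 118Q-KI, adjusted p = 0.28), all by limma. Between wild types, Lss 1420013_s_at (0.53) and Dhcr7 (0.41) were higher in CtmWT and Hsd17b7 1457248_x_at (-0.65) and Tm7sf2 (-0.38) lower. Other probe sets of Lss and Hsd17b7 had the opposite sign without passing: -0.30 on 1426913_at, the brightest of Lss (adjusted p = 0.155, limma), and 0.54 on Hsd17b7 1417871_at (adjusted p = 0.0577, limma). The direction of these genes therefore depended on the probe set.

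Of 12 listed genes of sterol sensing and uptake, 9 were measured on 17 probe sets, 0 of which passed in any mutant line. None of the 9 had an r above 0.5 with the members, where 10.2% of all genes did. Without the 11Q line 2 of 9 did (22.2%, against 12.5% of all), Stard4 and the sterol-sensing receptor Nr1h3 (0.52). The Nr1h3 probe set was dim, with a mean level of 2.24, below the lowest array median, 2.38. Srebf2, which encodes SREBP-2, had r = -0.513 with them, and 0.0955 without the 11Q line. Stard4, a sterol carrier protein and SREBP target, had 0.177, and 0.784 without the 11Q line. Between wild types Srebf2 (0.58) and the Insig1 relative Insig2 (1417982_at, 0.41) were higher in CtmWT. The SREBP protease Mbtps2 (-0.47), Stard4 1455011_at (-0.33) and the dim probe set 1431385_a_at of the protease Mbtps1 (-0.86, at a mean level of 1.23) were lower there. Brighter or other sets did not follow: the brightest Mbtps1 set, 1448240_at, gave 0.07, Stard4 1429240_at 0.31 (adjusted p = 0.0875, limma) and the brightest Insig2 set, 1417981_at, -0.02. In the mutant lines the smallest p values were those of Insig2 (0.25 in 118Q-KI, adjusted p = 0.351), Mbtps1 (-0.55 in 118Q-KI, adjusted p = 0.382) and Mbtps2 (-0.26 in 11Q-KI, adjusted p = 0.909), by limma.

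Of 9 genes of sterol transport, efflux and turnover, 8 were measured on 15 probe sets, and 0 passed in a mutant line. Cyp46a1, which hydroxylates cholesterol for its exit from neurons, had r = 0.669 with the members, and Lrp1, a lipoprotein receptor, -0.556. Cyp46a1 was the 1 of 8 above 0.5 (12.5%, against 10.2% of all genes), and without the 11Q line it was Lcat, which esterifies cholesterol (0.698), again 12.5% and equal to the share of all genes. Npc2, which carries cholesterol out of lysosomes, differed between lines: on 1416901_at the mutant difference was 0.28 in 118Q-KI and -0.32 in CtmKO, and the gap of 0.60 passed (adjusted p = 0.0468, limma). With the replicate number as a block it did not pass (adjusted p = 0.0603, limma). Apoe, the lipoprotein of glia, differed by 0.38 in 118Q-KI (adjusted p = 0.154, limma) and Lrp1 1442849_at by 0.55 in CtmKO (adjusted p = 0.261, limma). Between wild types the sterol exporter Abcg1 was higher in CtmWT (0.31), and its relative Abca1 (-0.51) and Lrp1 1442849_at (-0.71) were lower, while the brightest Lrp1 set, 1448655_at, gave 0.18.

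The 10 genes of SREBP-linked fatty acid synthesis, measured on 27 probe sets, also had 0 calls in the mutant lines, and 1 of 10, the acetyl-CoA carboxylase gene Acaca (0.509), had an r above 0.5 with the members, where 10.2% of all genes did. Without the 11Q line 3 of 10 did (30.0%, against 12.5%): Acss2, which makes acetyl-CoA from acetate (0.807, and 0.487 with that line), and the fatty acid desaturases Scd1 (0.769) and Fads1 (0.514). Acaca had -0.098 there. The smallest p values were those of Acss2 1422478_a_at (-0.51 in CtmKO, adjusted p = 0.137), the citrate lyase Acly 1439459_x_at (-0.57 in 118Q-KI, adjusted p = 0.12) and the malic enzyme Me1 (-0.56 in CtmKO, adjusted p = 0.163), by limma. Between wild types Me1 was higher in CtmWT (0.70), and Acaca (-0.50) and the fatty acid elongase Elovl6 (-0.32) were lower.

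Beyond the lists, the genes most like the members were those with the highest r, over the 18 arrays and within groups, with the mean of the 7 standardised deviations. They were Fbxl14, a ubiquitin ligase subunit (0.922), Ncan, a brain proteoglycan (0.911), Lima1, an actin-binding protein (0.901), Ldlrad3, a membrane protein with an LDL receptor domain (0.897), Eml1, a microtubule protein (0.897), Jakmip1, another microtubule protein (0.891), Rftn1, a lipid raft protein (0.891), and Ebna1bp2, a nucleolar protein (0.888). Of these, Fbxl14 (0.905), Jakmip1 (0.864) and Ncan (0.798) kept the highest values without the 11Q line, and Ldlrad3 had 0.205. At the other end stood Pdzd9, a PDZ domain protein (-0.883), Prokr2, a prokineticin receptor (-0.875), Gpx3, a secreted peroxidase (-0.864), and Igf1r, the receptor of insulin-like growth factor (-0.833). Tinagl1 and Col5a1, of the extracellular matrix (both -0.822), the interferon Ifna1 (-0.819) and the orphan receptor Brs3 (-0.816) followed. Mean levels of Pdzd9 (0.951), Prokr2 (0.912), Ifna1 (1.96) and Brs3 (2.02) lay below the lowest array median, 2.38. Both ends are the extremes of a search over 18186 genes and are given as a description.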

How the data were processed

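The deposited values are log2 expression levels per probe set, made by the authors with RMA, per the submitters' processing notes (no version given); the zero point of the scale is not given in the sources used here. The highest value, 12.2, would exceed a scanner's range of 65535 as a natural logarithm. Of 45101 probe sets, 64 controls and 10092 with several symbols or none were not tested. Differences were fitted with limma 3.58.1 in R 4.3.3 (lmFit, eBayes, 12 residual and 5.88 prior degrees of freedom) and checked on simulated data. No filter on dim probe sets was applied. The number of arrays limits the precision. Members and lists were chosen with earlier results of these data known. Named are all member probe sets, Cacna1a, list genes that passed in any contrast or had the 3 smallest p in a mutant line, and the 8 genes most and least like the members; marker lists are mostly given as counts. Same-numbered mutant and wild-type arrays correlated at -0.122 to 0.22 in their deviations, so numbers were not taken as pairs. Alternatives changed the unit, filter, prior, weights, normalisation, covariates, block, controls and arrays. Motifs were searched in RefSeq sequences of build GRCm38.p6.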

Additional observations from a re-analysis of the deposited data

Results flagged for a closer look

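Mutant effects that differed between the 118Q and Ctm lines by limma's test of the difference are given as the 118Q effect minus the Ctm effect. Among sterol genes this held for Npc2 1416901_at, at 0.60 (SE 0.145, adjusted p = 0.0468, limma). Among Purkinje cell markers it held for Slc1a6, at -1.01, for Calb1 on 3 probe sets (-1.66 on 1448738_at, -1.49 on 1456934_at and -2.08 on 1458836_at) and for Rora 1455165_at, at -0.70. On 1458836_at Calb1 was lower in 118Q-KI (-0.90) and higher in CtmKO (1.19). That probe set was also lower in CtmWT than in the other wild types. On the brightest sets of the Purkinje cell markers, Calb1 1417504_at among them, CtmKO differences ran only from -0.09 to 0.27. Among microglial markers it held for C1qb, at 1.10, C1qa, at 1.01, Trem2, at 0.78, and Tyrobp, at 1.44. No probe set of the 7 cholesterol synthesis genes was among them, and groups of 3 arrays were too small to look for outlying arrays.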

How the results depend on the processing

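Of 399 alternative values for the members' mutant differences on the brightest probe set, 358 kept their direction and side of the threshold, 40 changed sign, 1 newly passed with its sign kept and 0 ceased to pass. The new pass was Fdft1 in CtmKO (-0.646), and of the 40 that changed sign 1 passed, Hmgcs1 in CtmKO (0.476, adjusted p = 0.0348, limma), both with the 6 arrays of 118Q-WT and 11Q-WT as control. The count of member calls in the wild-type contrast was 1 with the brightest probe set per gene, with renewed quantile normalisation, with the choroid plexus covariate and with the arrays of the comparison alone, 0 with the mean of probe sets or with a fold change of 1.5 as well, and 0 to 2 without 1 array. With array weights 118Q-KI had 1 call, and with the 6 arrays of 118Q-WT and 11Q-WT as control 118Q-KI had 1 and CtmKO 2. Over all probe sets the alternatives gave 0 to 2194 calls in 118Q-KI against 195, 2 to 3456 in CtmKO against 320, 0 to 5 in 11Q-KI, 0 to 2205 against 570 for 118Q minus Ctm, 0 to 153 for Ctm minus 11Q (489 without CtmWT array 1), 0 to 5 for 118Q minus 11Q (89 without 118Q-KI array 1) and 2328 to 7343 against 5800 between wild types.

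Sign changes in the 118Q line were Msmo1 at 0.143 with the mean of probe sets, Cyp51 at 0.0136 with array weights, and Idi1 at -0.0465 and Fdft1 at -0.158 with the RNA quality covariate. In the Ctm line they were Msmo1 at 0.0884 (mean of probe sets), Hmgcs1 at 0.00236 (renewed quantile normalisation), Hmgcs1 at 0.476, Sqle at 0.0166, Idi1 at -0.0381 and Msmo1 at 0.0721 (6 arrays of 118Q-WT and 11Q-WT as control), and Hmgcs1 at 0.106 and Msmo1 at 0.0535 without CtmWT arrays 2 and 3, where the lone wild type was taken to vary like the other groups. In the 11Q line array weights gave Hmgcs1 0.0539, Sqle 0.195, Idi1 0.0714 and Cyp51 0.146, renewed quantile normalisation gave Sqle 0.0298 and the RNA quality covariate Sqle 0.0504. Without 1 array, the 118Q differences ran from -0.164 to 0.215 for Cyp51, -0.198 to 0.0896 for Insig1, -0.165 to 0.0312 for Msmo1 and -0.11 to 0.105 for Sqle. The Ctm differences ran from -0.0812 to 0.022 for Hmgcs1 and -0.0686 to 0.0794 for Msmo1. The 11Q differences ran from -0.433 to 0.126 for Cyp51, -0.252 to 0.0612 for Hmgcs1, -0.363 to 0.0624 for Idi1, -0.479 to 0.00951 for Msmo1 and -0.236 to 0.287 for Sqle. Causes were not tested.

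The 9 pairs that passed within groups became 0 with the mean of probe sets, on the 9 wild-type arrays alone, without the 11Q line (median r 0.208) and without 11Q-WT arrays 1 and 3 and 11Q-KI array 1 (median r 0.145), both of these omissions chosen after seeing the data, and 0 to 12 without 1 array (median r 0.489 to 0.743). Without 11Q-WT array 1, 2 or 3 there were 5, and without 11Q-KI array 1 there were 0. With the replicate number as a block, the member calls were 0, 0 and 0 in the mutant lines and 2 between wild types, as without it. Counts of pairs under the covariates were not computed.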

Other observations

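Further markers passed between the wild types, beside those named with Hmgcs1. Higher in CtmWT were the Purkinje cell genes Pcp2 and Car8, the granule cell genes Zic2 and Cbln1, the microglial C1qb on 1437726_x_at, the fibroblast gene Col1a1 and the noradrenergic transporter Slc6a2. Lower were Rora, Calb1 1458836_at, Reln, the microglial receptor Csf1r and the endothelial transporter Slco1a4.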
